A study of Homo sapiens with 6 samples.

Results

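The genes described here are the core of the machinery that commits a cell to leave G1: the cyclins CCND1, CCND3, CCNE1 and CCNE2, the kinases CDK4 and CDK6, the inhibitors CDKN2A, CDKN2C and CDKN1B, and the retinoblastoma gene RB1. They were found by symbol, and these 10 genes were 10 of the 60605 genes in the deposited table. All 10 passed the filter on low values, among 14192 genes tested. The study compared SW480 cells, an established human line from a colon adenocarcinoma, that overexpressed TIPE (the gene TNFAIP8) from a lentivirus with SW480 cells given the empty lentiviral vector. All cells of both groups were kept under puromycin before sequencing, and each group had 3 poly(A) RNA-seq libraries. The promoter driving TIPE, and whether the cells were a pool or a clone, were not given in the sources used here. The labels name no separate culture for each library, so p-values measure library-to-library spread alone, and that spread may be technical.

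D-type cyclins, encoded here by CCND1 and CCND3, bind CDK4 or CDK6, and the active kinases phosphorylate the retinoblastoma protein, which otherwise holds E2F transcription factors inactive. Cyclin E, from CCNE1 and CCNE2, then works with CDK2 to complete that step and start DNA replication. INK4 proteins, such as p16 from CDKN2A and p18 from CDKN2C, bind CDK4 and CDK6, while p27 from CDKN1B inhibits cyclin E with CDK2. In the intestinal epithelium, WNT and MYC signalling drive this step, and CCND1 is one of the cyclins most studied in colorectal tumours.

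TNFAIP8 had 87318, 98811 and 62902 counts in the TIPE libraries, against 175, 158 and 104 counts in the vector libraries. Its level was 576 ± 48.3 FPKM in TIPE and 1.05 ± 0.263 FPKM in vector libraries (SD, n = 3 each). FPKM is the count scaled by exonic gene length and by the library's total count. Total counts ran from 13957349 to 20345330 in TIPE libraries and from 14472231 to 19496484 in vector libraries. TIPE replicate 3 stood apart within its group: its chi-square per gene was 7.17 to 7.64 against the other TIPE libraries, where the other pairs within a group gave 2.24 to 3.62 and pairs across groups gave 21.8 to 39.3. Calls that change without it are given with and without it. All 7 colon epithelial markers averaged at least 1 FPKM, with a summed level of 1610 to 1660 FPKM in TIPE and 1250 to 1340 FPKM in vector libraries. The markers did not move together: KRT18 averaged 747 FPKM in TIPE and 478 FPKM in vector libraries, while CDH1 averaged 13.7 and EPCAM 87.0 FPKM in TIPE, against 35.9 and 105 FPKM in vector libraries. No leukocyte or endothelial marker of 4 and 3 averaged 1 FPKM, 3 of the leukocyte markers were at 0 in all libraries, and 1 of 4 fibroblast markers did, with no FPKM over 2.66. Whether the differences in the epithelial markers had a part in the results below was not tested.

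In TIPE cells, CDK4 was higher and CDK6 and RB1 were lower, each under all 20 alternatives. The INK4 gene CDKN2A was higher too, but not after correction for GC content and length (0.11, edgeR adjusted p = 0.103). None of the 4 cyclins among the members differed in a call that held under every alternative. At a Benjamini-Hochberg adjusted p under 0.05 in the quasi-likelihood test of edgeR, CDK4, CDKN2A and CCND3 were higher and CDK6, RB1 and CDKN2C were lower. CCND1, CCNE1, CCNE2 and CDKN1B did not pass. Of all 14192 genes tested, 41.9% passed in either direction, 21.1% as higher and 20.8% as lower, and the members' counts, 6 of 10 with 3 in each direction, are read against those shares. The FPKM values of the TIPE and vector libraries did not overlap for 6 members (CCNE2, CDK4, CDK6, CDKN2A, CDKN2C and RB1), where 50.9% of all tested genes showed no overlap. The members' median log2 fold change was −0.09 and their median absolute log2 fold change was 0.30, against −0.00058 and 0.22 over all tested genes. In bulk libraries, fewer cells expressing a gene, or fewer cells in a cell cycle phase, cannot be told apart from less RNA per cell.

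**Figure D1:**
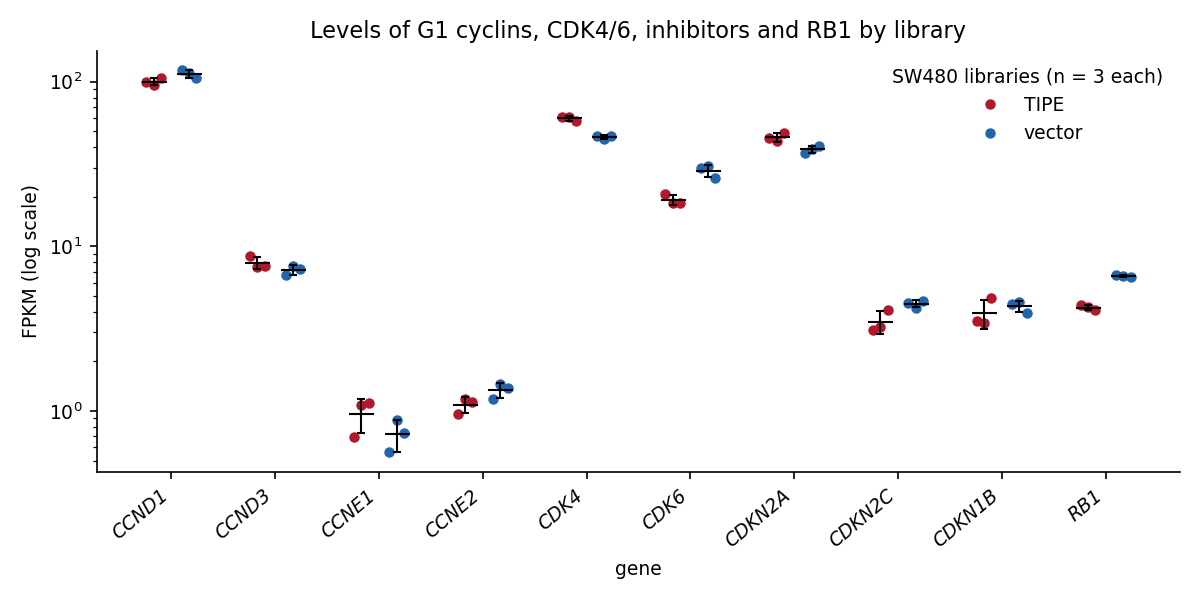
FPKM of the 10 genes on a log axis, with a point for each library and the mean and SD of each group (TIPE left, vector right, n = 3 each). The TIPE and vector points separate for CDK4, CDK6, CDKN2A, CDKN2C, RB1 and CCNE2, and overlap for CCND1, CCND3, CCNE1 and CDKN1B.

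The order of the levels was nearly the same in both groups, as FPKM. In TIPE libraries it was CCND1, CDK4, CDKN2A, CDK6, CCND3, RB1, CDKN1B, CDKN2C, CCNE2 and CCNE1. In vector libraries it was CCND1, CDK4, CDKN2A, CDK6, CCND3, RB1, CDKN2C, CDKN1B, CCNE2 and CCNE1. Neighbours whose ranges overlapped were RB1 with CDKN1B, CDKN1B with CDKN2C, and CCNE2 with CCNE1 in TIPE libraries, and CCND3 with RB1 and CDKN2C with CDKN1B in vector libraries. CCND1 averaged 100.2 ± 4.98 FPKM in TIPE and 111.9 ± 6.03 FPKM in vector libraries, while CCNE1 averaged 0.960 ± 0.23 FPKM in TIPE and 0.721 ± 0.159 FPKM in vector libraries.

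The sequences before the starts of CDK4 and CDK6 are shown because these kinases differ in opposite directions. Those of CDKN2A, the gene of their inhibitor, are shown because its count sums transcripts of 2 starts. Each is the 250 bases before a RefSeq start on GRCh38.p14, written 5′ to 3′ on the gene's strand, with the E-box CACGTG in capitals. The E-box is the site recognised by MYC and other basic helix-loop-helix factors, and it was searched for after the CDK4 sequence had been read.
CDK4, chr12:57752311-57752560, minus strand: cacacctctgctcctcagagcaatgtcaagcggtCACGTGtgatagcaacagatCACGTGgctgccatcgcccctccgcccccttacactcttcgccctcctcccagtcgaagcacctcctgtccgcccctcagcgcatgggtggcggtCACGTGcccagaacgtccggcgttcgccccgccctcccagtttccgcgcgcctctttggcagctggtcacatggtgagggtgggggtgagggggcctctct
CDK6, chr7:92836574-92836823, minus strand: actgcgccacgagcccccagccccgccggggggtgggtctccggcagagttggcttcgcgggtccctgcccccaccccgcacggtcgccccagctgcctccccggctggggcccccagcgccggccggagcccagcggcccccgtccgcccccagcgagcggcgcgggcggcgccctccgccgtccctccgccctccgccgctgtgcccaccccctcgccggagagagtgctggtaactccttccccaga
CDKN2A, start of the p16INK4a transcript, chr9:21974858-21975107, minus strand: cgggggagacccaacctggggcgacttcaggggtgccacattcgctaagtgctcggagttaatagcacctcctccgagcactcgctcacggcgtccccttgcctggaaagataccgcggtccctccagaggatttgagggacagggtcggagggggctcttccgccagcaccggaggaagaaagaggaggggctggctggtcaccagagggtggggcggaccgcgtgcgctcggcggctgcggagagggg
CDKN2A, start of the p14ARF transcript, chr9:21995325-21995574, minus strand: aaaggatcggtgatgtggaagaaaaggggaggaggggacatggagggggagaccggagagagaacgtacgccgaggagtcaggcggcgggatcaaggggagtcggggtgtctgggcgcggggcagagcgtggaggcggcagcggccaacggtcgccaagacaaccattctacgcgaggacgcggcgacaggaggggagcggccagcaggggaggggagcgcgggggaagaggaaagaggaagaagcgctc

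CDK4 held 3 matches to CACGTG, and those of CDK6 and CDKN2A shown held none. The letters are the same on both strands. Of 14 such windows for 8 members, 3 held the motif, those of CDK4 and 2 windows of CDKN2C, against 6.3% of 35116 promoters of the same length. As the CDK4 window was read before the motif was chosen, these counts are not a test. Member windows on chromosome 8, where CCNE2 lies, were left out, and CCND1 had no entry among the promoters used. The RB1 window among the 14 precedes an alternative start inside the gene. The 4 E2F words TTTCGCGC, TTTGGCGC, TTTCCCGC and TTTGCCGC, searched on both strands, matched 0 of 14 windows, against 2.8% of all promoters. The windows include none for CCND1 or CCNE2 and none before the first start of RB1, so this count does not describe those promoters. A match is a description of these letters.

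CDK4, which pairs with D-type cyclins, had 61.2, 61.3 and 57.6 FPKM in TIPE libraries, against 46.8, 44.5 and 46.5 FPKM in vector libraries. The lowest TIPE library lay above the highest vector library. The level was 1.37-fold higher in TIPE, a log2 fold change of 0.46 (SE 0.056, edgeR adjusted p = 5.33e-07), and it remained called under all 20 alternatives. The gene lies at chr12:57747727-57756013 on the minus strand (hg38, ENSG00000135446). It overlaps TSPAN31 and MARCHF9 on the other strand, whose counts were 226 to 352 and 289 to 419, below the 2080 to 3860 counts of CDK4. The sources used here do not say if counting was strand-aware. The pseudogene CDK4P1 had 0 counts in all libraries.

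CDK6, the other partner of D-type cyclins, had 20.8, 18.4 and 18.3 FPKM in TIPE libraries, against 29.9, 30.6 and 26.1 FPKM in vector libraries. All 3 TIPE libraries were below all 3 vector libraries. The level was 1.44-fold lower in TIPE, with a log2 fold change of −0.52 (SE 0.062, edgeR adjusted p = 4.6e-07). The call held under all 20 alternatives, and the log2 fold change was −0.25 after correction for GC content and length (adjusted p = 0.000556, range over alternatives 9.97e-17 to 0.00154). CDK6 lies at chr7:92604921-92836573 on the minus strand (hg38, ENSG00000105810).

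As a share of the summed FPKM of CDK4 and CDK6, CDK4 made up 74.6%, 77.0% and 75.9% in TIPE libraries, against 61.0%, 59.3% and 64.0% in vector libraries. The difference was 14.4 percentage points, with means of 75.8% ± 1.16 in TIPE and 61.5% ± 2.4 in vector libraries (SD, n = 3 each), and the groups did not overlap. An exact two-sided permutation test gave p = 0.1, the smallest that 3 libraries against 3 allow. The ratio of CDK4 to CDK6 was 3.15 ± 0.198 in TIPE and 1.60 ± 0.165 in vector libraries. Of the summed FPKM of CCND1 and CCND3, CCND1 made up 92.6% ± 0.706 in TIPE and 93.9% ± 0.569 in vector libraries, a difference of −1.29 points (exact permutation p = 0.1, n = 3 each). Of the summed FPKM of CCNE1 and CCNE2, CCNE1 made up 46.3% ± 3.79 in TIPE and 34.7% ± 2.79 in vector libraries, a difference of 11.6 points (exact permutation p = 0.1, n = 3 each). The 3 shares are 1 family of tests and none passed 0.05, which this design cannot reach. The shares were not corrected for GC content and length. GC content was 53.6% for CDK4 and 39.5% for CDK6, and 52.9% for CCNE1 and 36.9% for CCNE2. The part of base composition in the differences of the shares was not tested.

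**Figure D2:**
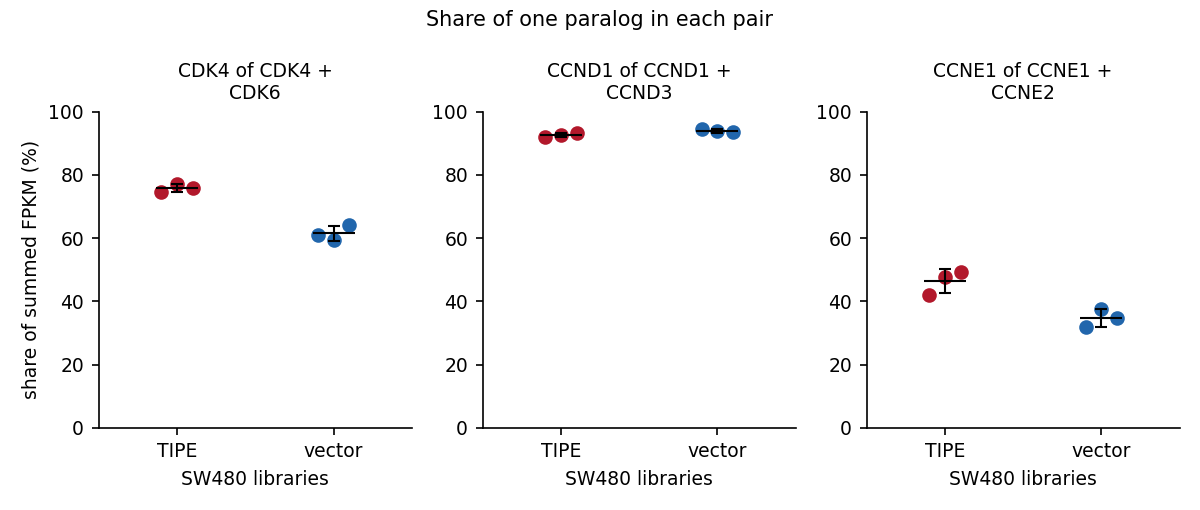
Share of the summed FPKM, in percent, held by CDK4, CCND1 and CCNE1 in its pair, with a point for each library and the mean and SD of the group (TIPE left, vector right, n = 3 each). CDK4 holds a larger share in all 3 TIPE libraries (74.6% to 77.0%) than in any vector library (59.3% to 64.0%).

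CCND1, a D-type cyclin that drives CDK4 and CDK6, had 99.0, 96.0 and 106 FPKM in TIPE libraries, against 117, 113 and 105 FPKM in vector libraries. TIPE replicate 3 lay above vector replicate 3, so the groups overlapped. The log2 fold change was −0.09 (95% interval −0.20 to 0.025, edgeR adjusted p = 0.208). Without TIPE replicate 3 it was −0.12 and passed the threshold (adjusted p = 0.0362, range over alternatives 0.0242 to 0.487). It also passed with library totals in place of TMM (−0.16, adjusted p = 0.0242) and on TPM (−0.22, adjusted p = 0.0286), where the median of all genes was −0.13. CCND1 lies at chr11:69641156-69654474 on the plus strand (hg38), overlapped by LTO1 on the other strand at 1042 to 1602 counts.

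CCND3, another D-type cyclin, had 8.73, 7.52 and 7.60 FPKM in TIPE libraries, against 6.70, 7.64 and 7.28 FPKM in vector libraries. The first TIPE library stood above the rest, and the groups overlapped. The log2 fold change was 0.21 (SE 0.075, edgeR adjusted p = 0.0265), and the call was lost under 10 of 20 alternatives (adjusted p 0.00242 to 0.512). Leaving out TIPE replicate 1 gave 0.14 (adjusted p = 0.168), leaving out vector replicate 1 gave 0.15 (adjusted p = 0.181) and leaving out vector replicate 3 gave 0.22 (adjusted p = 0.0584). CCND3 was also not called after the GC and length correction. The gene lies at chr6:41934934-42050357 on the minus strand (hg38).

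CCNE1 and CCNE2, the E-type cyclins, were near the filter on low values. CCNE1 had 28, 54 and 38 counts in TIPE libraries, against 21, 42 and 26 counts in vector libraries, or 0.69, 1.08 and 1.11 FPKM against 0.56, 0.88 and 0.73 FPKM. The groups overlapped, and the log2 fold change was 0.47 (95% interval −0.07 to 1.00, edgeR adjusted p = 0.157). Without TIPE replicate 1 it was 0.65 and passed (adjusted p = 0.0498, range over alternatives 0.0498 to 0.431). CCNE2 had 0.96, 1.18 and 1.14 FPKM in TIPE libraries, against 1.19, 1.46 and 1.37 FPKM in vector libraries. Every TIPE library was below every vector library by a small margin, and the log2 fold change was −0.22 (95% interval −0.54 to 0.10, edgeR adjusted p = 0.274). CCNE2 is overlapped by INTS8 and NDUFAF6 on the other strand, with 543 to 812 and 229 to 364 counts where CCNE2 had 69 to 125, so its value is uncertain. CCNE1 lies at chr19:29811991-29824312 (plus strand, hg38).

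Of the inhibitors, CDKN2A had 45.3, 43.6 and 48.9 FPKM in TIPE libraries, against 37.0, 39.2 and 40.8 FPKM in vector libraries. The groups did not overlap, and the level was 1.24-fold higher in TIPE (log2 fold change 0.31, SE 0.058, edgeR adjusted p = 0.000168). After correction for GC content and length, the log2 fold change was 0.11 and did not pass (adjusted p = 0.103, range over alternatives 5.16e-06 to 0.136). The CDKN2A count sums the transcripts of p16INK4a and p14ARF, which stabilises p53, and the gene at chr9:21967752-21995301 (minus strand, hg38) is overlapped by CDKN2B-AS1, which had 61 to 111 counts.

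CDKN2C, which encodes p18INK4c, had 154, 198 and 174 counts in TIPE libraries, against 210, 249 and 204 counts in vector libraries, or 3.11, 3.22 and 4.13 FPKM against 4.55, 4.23 and 4.67 FPKM. The groups did not overlap, though the highest TIPE library came within 0.1 FPKM of the lowest vector library. The log2 fold change was −0.30 (SE 0.11, edgeR adjusted p = 0.0391), and the call was lost under 8 of 20 alternatives (adjusted p 0.00114 to 0.158), among them leaving out TIPE replicate 1 (0.158), TIPE replicate 2 (0.142), vector replicate 1 (0.0932), vector replicate 2 (0.0534) or vector replicate 3 (0.118). After the GC and length correction it was −0.48 (adjusted p = 0.00146). CDKN1B, which encodes p27, had 3.50, 3.42 and 4.82 FPKM in TIPE libraries, against 4.45, 4.59 and 3.96 FPKM in vector libraries. TIPE replicate 3 was the highest of all 6 libraries, and the log2 fold change was −0.09 (95% interval −0.31 to 0.12, edgeR adjusted p = 0.502). Without that library it was −0.25 and passed (adjusted p = 0.00298, range over alternatives 0.00298 to 0.975). CDKN2C lies at chr1:50960745-50974634 and CDKN1B at chr12:12685498-12722369 (plus strands, hg38).

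RB1, whose protein is the substrate of CDK4 and CDK6 and a brake on E2F factors, had 4.38, 4.26 and 4.09 FPKM in TIPE libraries, against 6.73, 6.62 and 6.55 FPKM in vector libraries. The libraries of each group lay close together and far from the other group. The level was 1.49-fold lower in TIPE (log2 fold change −0.57, SE 0.072, edgeR adjusted p = 8.68e-07), the largest of the 10 by absolute log2 fold change in this fit. In some alternatives another member exceeded it, among them CDKN2C (−0.48) after the GC and length correction and CCNE1 (0.65) without TIPE replicate 1. By limma on log2(FPKM + 1), CDK6 was at −0.567 and RB1 at −0.542. The call of RB1 held under all 20 alternatives, at −0.36 after the GC and length correction (adjusted p = 0.000292, range over alternatives 3.37e-11 to 0.00051). RB1 lies at chr13:48303744-48599436 on the plus strand (hg38, ENSG00000139687). RCBTB2, inside it on the other strand, had 29 to 47 counts, where RB1 had 367 to 830.

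**Figure D3:**
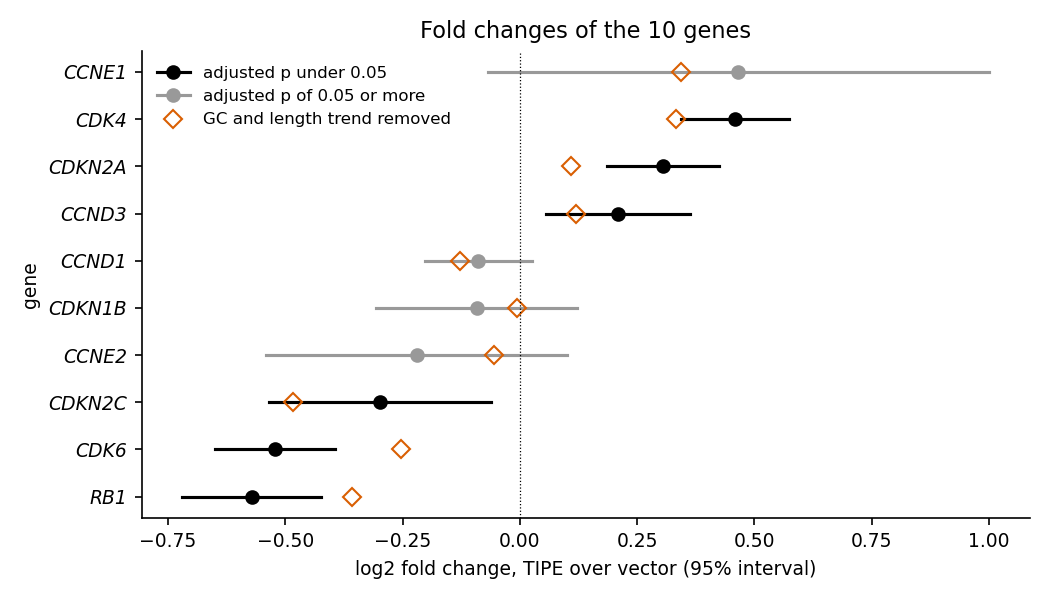
Log2 fold change of TIPE over vector for each of the 10 genes with its 95% interval from edgeR (black: adjusted p under 0.05, grey: not), and open diamonds for the value after correction for GC content and length. CDK4 and RB1 stay on their side of 0 after correction (0.33 and −0.36), and CDKN2A lies closer to 0 (0.11).

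The members also differ in base composition, and the fold changes of all genes moved with it. Tested genes in the lowest quintile of GC content had a median log2 fold change of −0.21 and those in the highest quintile 0.19. CDK6, RB1 and CCNE2 fell in the lowest quintile, and CDKN2A and CDKN2C in the highest. CDK4, CCND3 and CCNE1 were in the quintile below the highest, at a median of 0.10. The part of base composition in the results was measured only by removing the trend. CDK4 was then 0.33 (adjusted p = 1.16e-05, range over alternatives 6.24e-15 to 0.00205), and CCND3 was no longer called. The values for CDK6, CDKN2A, CDKN2C and RB1 are given with each gene.

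The genes around the members were read in a window of 1 Mb on either side. Their counts are read against the 21.1% of all tested genes called higher and the 20.8% called lower. The medians below were not corrected for GC content and length. Of the 14 tested genes near CDK6, 6 were lower and 0 higher, with a median log2 fold change of −0.37, against −0.10 over the 767 tested genes of chromosome 7. Those 6, named after their values were seen, were AKAP9, KRIT1, ANKIB1, GATAD1, FAM133B and VPS50. AKAP9, a scaffold of protein kinase A at the Golgi and centrosome, had −0.95 (edgeR adjusted p = 1.41e-09), and ANKIB1, an ankyrin repeat protein with an E3 ligase domain, had −0.56 (edgeR adjusted p = 1.28e-07). Both were called under all 20 alternatives. KRIT1, at −0.36, lost its call when TIPE replicate 1 (adjusted p = 0.0567) or 2 (0.216) or vector replicate 1 (0.0857), 2 (0.0609) or 3 (0.07) was left out, and GATAD1, at −0.18, when vector replicate 1 (0.0609) or 2 (0.0736) was. After the GC and length correction KRIT1 (−0.17, adjusted p = 0.347), GATAD1 (−0.12, adjusted p = 0.0598) and VPS50 (−0.14, adjusted p = 0.227) were not called, while AKAP9, ANKIB1 and FAM133B were. Near RB1, 1 of 9 tested genes was lower and 0 higher, with a median of −0.09, close to the −0.10 of chromosome 13. Near CDK4, 15 of 38 tested genes were higher and 4 lower, with a median of 0.15 against −0.04 for chromosome 12. Whether the levels of neighbours have a part in those of the members was not tested.

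**Figure D4:**
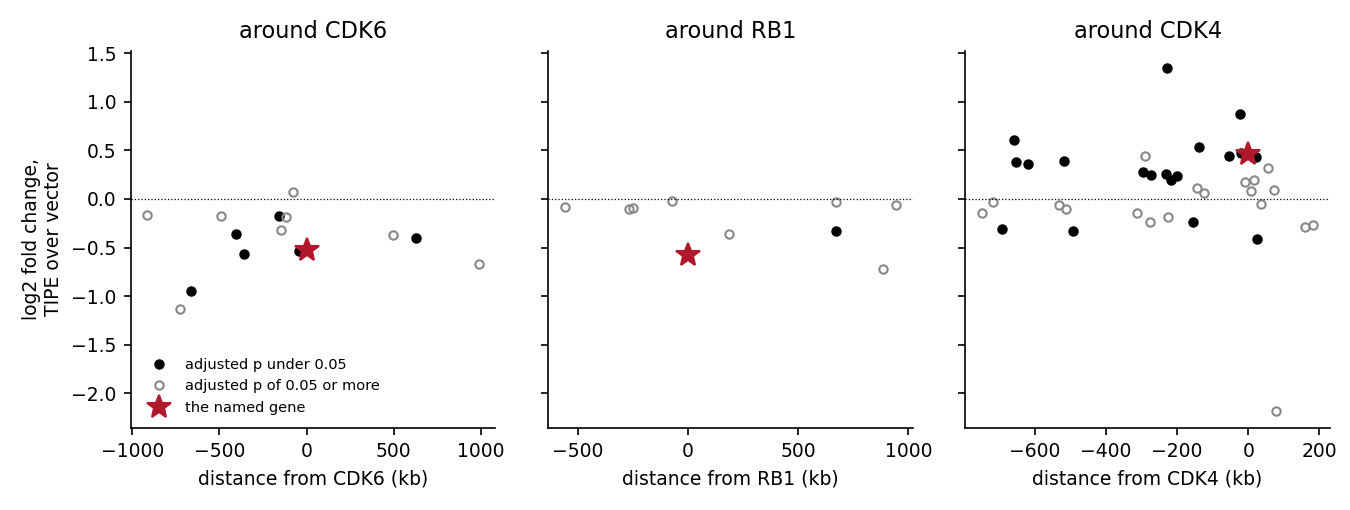
Log2 fold change of TIPE over vector for tested genes within 1 Mb of CDK6, RB1 and CDK4, against the distance of their lower coordinates in kb (filled: adjusted p under 0.05, open: not, star: the named gene). Near CDK6 most genes lie below 0, while near RB1 the star stands below most of its neighbours.

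The wider pathway was read from lists, each described by counts and its median beside the median of −0.00058 over all genes, and each count is read against the 21.1% of tested genes called higher and the 20.8% called lower. Of the 8 other G1 cyclins and kinases, 1 was higher and 1 lower (median −0.03), with 3 lower without TIPE replicate 3 and 3 higher after the GC and length correction. The first was CCND2, a D-type cyclin, at 2.10 ± 0.294 FPKM in TIPE and 1.04 ± 0.0687 FPKM in vector libraries (log2 fold change 1.07, edgeR adjusted p = 1.23e-07, called under all 20 alternatives). The second was CDC25A, a phosphatase that activates cyclin-dependent kinases, at 13.0 ± 0.361 FPKM in TIPE and 15.6 ± 0.357 FPKM in vector libraries (−0.19, edgeR adjusted p = 0.0171). Its call was lost without TIPE replicate 2 (−0.18, adjusted p = 0.0607) and without vector replicate 1 (−0.18, adjusted p = 0.0627). CDK7, the highest of the list, had 27.6 ± 2.75 FPKM in TIPE and 27.1 ± 1.36 FPKM in vector libraries (log2 fold change 0.09, edgeR adjusted p = 0.286), and was called after the GC and length correction (0.17, adjusted p = 0.0287). The other 4 CDK inhibitors did not pass: CDKN1A, which encodes p21, had 1.55 ± 0.124 FPKM in TIPE and 2.09 ± 0.16 FPKM in vector libraries (−0.37, edgeR adjusted p = 0.0525), and it passed under 8 of 20 alternatives, among them without TIPE replicate 3 (−0.41, adjusted p = 0.0433). On TPM 3 of the 4 were lower. CDKN2B, encoding p15, was at −0.09 (adjusted p = 0.273), CDKN2D at −0.29 (adjusted p = 0.309) and CDKN1C at 0.14 (adjusted p = 0.526).

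Of the 12 tested genes of the RB family and E2F factors, 0 were higher and 5 lower (median −0.055), with 2 lower when TIPE replicate 2 or vector replicate 1 was left out and 3 lower without vector replicate 2. There was 1 higher without TIPE replicate 3 or with upper-quartile factors, and 2 were higher and 5 lower after the GC and length correction. RBL1, which encodes p107, had 3.34 ± 0.124 FPKM in TIPE and 5.35 ± 0.249 FPKM in vector libraries (−0.61, edgeR adjusted p = 1.86e-06, called under all 20 alternatives), and E2F8, a repressor, had 0.905 ± 0.139 FPKM in TIPE and 1.66 ± 0.54 FPKM in vector libraries (−0.80, edgeR adjusted p = 0.0029, called under all 20 alternatives). The others called were E2F2 at −0.35 (adjusted p = 0.0284), E2F3 at −0.21 (adjusted p = 0.0279) and RBL2, which encodes p130, at −0.16 (adjusted p = 0.0422), of which RBL2 was named after its values were seen. E2F2 lost its call under 6 of 20 alternatives, among them without TIPE replicate 1 (adjusted p = 0.0702) or 2 (0.0586) and without vector replicate 1 (0.0543) or 3 (0.108). E2F3 lost it under 8 of 20, among them without TIPE replicate 1 (0.072) or 2 (0.111) and vector replicate 1 (0.208) or 2 (0.105). RBL2 lost it under 10 of 20, among them without TIPE replicate 2 (0.061) or 3 (0.0903) and without vector replicate 1 (0.11) or 2 (0.175). The log2 fold change of RBL2 ran from −0.29 to −0.0032 over the alternatives (adjusted p 0.00426 to 0.972). E2F4, the most abundant, had 103 ± 2.87 FPKM in TIPE and 104 ± 2.73 FPKM in vector libraries (0.05, adjusted p = 0.45, with a sign that changed under other scalings), and was called as lower after the GC and length correction (−0.13, adjusted p = 0.0299).

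MuvB proteins join p130 or p107 in the DREAM complex, which represses cell cycle genes, and 2 of 5 core members were lower and 0 higher (median −0.11), against 1 lower and 1 higher after the GC and length correction. LIN54 had 2.72 ± 0.146 FPKM in TIPE and 3.94 ± 0.463 FPKM in vector libraries (−0.47, edgeR adjusted p = 0.000206). LIN9 had 4.39 ± 0.308 FPKM in TIPE and 5.73 ± 0.331 FPKM in vector libraries (−0.32, edgeR adjusted p = 0.00396), and its call was lost after the GC and length correction (−0.21, adjusted p = 0.0545). LIN52 was at −0.11, and LIN37 and RBBP4 at 0.17 and 0.04, without passing. The sign of LIN37 and RBBP4 changed under other settings, and RBBP4 was called as higher after the GC and length correction (0.24, adjusted p = 0.000462). Of 8 ubiquitin ligase parts that turn over cyclins and p27, 2 were higher and 0 lower (median 0.066), with 3 higher without TIPE replicate 1 or after the correction and 1 higher without TIPE replicate 3 or vector replicate 2 or 3. FBXO31, which targets cyclin D1, had 7.08 ± 0.48 FPKM in TIPE and 5.40 ± 0.317 FPKM in vector libraries (0.47, edgeR adjusted p = 1.84e-05). RBX1, a subunit of cullin ligases, was at 0.27 (adjusted p = 0.0147), and was not called without TIPE replicate 3 (0.0811) or without vector replicate 2 (0.104) or 3 (0.0512). CKS1B, a p27 adaptor, was at 0.08 (adjusted p = 0.44), below 0 on FPKM or TPM and without TIPE replicate 2, and called as higher without TIPE replicate 1 (adjusted p = 0.0414).

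Of 14 tested transcriptional regulators of the members, 4 were higher and 5 lower (median −0.048), and CBX7 lay under the filter. Without vector replicate 3, 2 were lower, without TIPE replicate 1 or vector replicate 1, 3 were lower, and after the GC and length correction 3 were higher and 1 lower. ID1, an inhibitor of basic helix-loop-helix factors, had 45.8 ± 5.83 FPKM in TIPE and 28.4 ± 0.516 FPKM in vector libraries (0.75, edgeR adjusted p = 5.28e-08). ETS1 (0.24, adjusted p = 0.000632), FOXO4 (0.32, adjusted p = 0.0167) and MYC (0.20, adjusted p = 0.00674) were the others higher, and MYC averaged 371 ± 25.5 FPKM in TIPE and 338 ± 7.13 FPKM in vector libraries. MYC lost its call under 7 of 20 alternatives (range of adjusted p over the 20 0.0012 to 0.385). The 7 include the fits without vector replicate 1 (0.18, adjusted p = 0.0577), after the GC and length correction (0.11, adjusted p = 0.136) and with library totals only (0.13, adjusted p = 0.0591). FOXO4 lost its call under 8 of 20 alternatives, among them without TIPE replicate 2 (adjusted p = 0.0596) and without vector replicate 2 (adjusted p = 0.148). The 5 lower were polycomb subunits SUZ12, BMI1, RNF2 and EZH2, which can silence CDKN2A, and the WNT effector TCF7L2. The other polycomb subunits of the list were not called: EED was at 0.08 (edgeR adjusted p = 0.388), and CBX7, fitted without the filter, at 0.36 (edgeR adjusted p = 0.234). SUZ12 had 9.82 ± 0.292 FPKM in TIPE and 13.5 ± 0.86 FPKM in vector libraries (−0.39, edgeR adjusted p = 1.69e-05), and BMI1 had 12.3 ± 0.24 FPKM in TIPE and 15.6 ± 0.463 FPKM in vector libraries (−0.27, edgeR adjusted p = 0.000718). After that correction, BMI1 was at −0.13 (adjusted p = 0.0652), RNF2 at −0.11 (adjusted p = 0.344), EZH2 at 0.037 (adjusted p = 0.695) and TCF7L2 at −0.10 (adjusted p = 0.203), none of them called. RNF2 also lost its call without TIPE replicate 1 (0.109), vector replicate 1 (0.0681) or vector replicate 3 (0.0895). EZH2 lost it without TIPE replicate 1 (0.178) or 2 (0.144) and without vector replicate 1 (0.0999), 2 (0.0839) or 3 (0.0797). TCF7L2 lost it without TIPE replicate 3 (0.0626) and without vector replicate 3 (0.13). FOXO4, RNF2, EZH2, TCF7L2, EED and CBX7 were named after their values were seen.

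Among 25 E2F target genes of G1 and S phase, 9 were higher and 4 lower (median 0.070). MCM5 and MCM6, subunits of the replicative helicase, had 7.32 ± 0.363 and 31.3 ± 0.692 FPKM in TIPE libraries, against 5.43 ± 0.123 and 25.8 ± 0.665 FPKM in vector libraries (0.50 and 0.35, edgeR adjusted p = 2.53e-06 and 1.65e-05). TYMS, which makes thymidylate, was at 0.44 (adjusted p = 3.49e-05). RRM2, a subunit of ribonucleotide reductase, had 5.86 ± 0.432 FPKM in TIPE and 7.95 ± 0.186 FPKM in vector libraries (−0.37, edgeR adjusted p = 7.57e-05), and the other lower genes, named after their values were seen, were MYBL2 at −0.27, GINS1 at −0.24 and POLA1 at −0.21. POLA1 was at 0.025 and GINS1 at −0.15 after the GC and length correction, neither of them called. MCM7, the most abundant, had 136 ± 4.15 FPKM in TIPE and 136 ± 4.64 FPKM in vector libraries. After the GC and length correction, 6 of the 25 were higher and 4 lower. On log2(FPKM + 1), 5 of the 25 were higher and 5 lower (median −0.00062), and on TPM 3 were higher and 9 lower (median −0.068). With library totals only, 7 were higher and 5 lower (median −0.00073). Without TIPE replicate 3, 9 were higher and 5 lower.

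Of the 18 genes of the G2 and M phase list, 12 were lower and 0 higher (median −0.38). Between 12 and 15 were lower over the 20 alternatives, with 13 lower and 1 higher without TIPE replicate 3. CENPF, a kinetochore protein, had 2.93 ± 0.17 FPKM in TIPE and 6.14 ± 0.557 FPKM in vector libraries (−1.0, edgeR adjusted p = 1.48e-10). KIF11, a spindle motor, had 6.62 ± 0.436 FPKM in TIPE and 12 ± 0.709 FPKM in vector libraries (−0.79, edgeR adjusted p = 3.6e-09). MKI67, the proliferation marker, was at −0.88 (adjusted p = 1.12e-08) and TOP2A, the topoisomerase of mitotic chromosomes, at −0.61 (adjusted p = 4.97e-09). CDC20, the most abundant, had 30.4 ± 2.33 FPKM in TIPE and 31.0 ± 1.59 FPKM in vector libraries and did not pass.

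**Figure D5:**
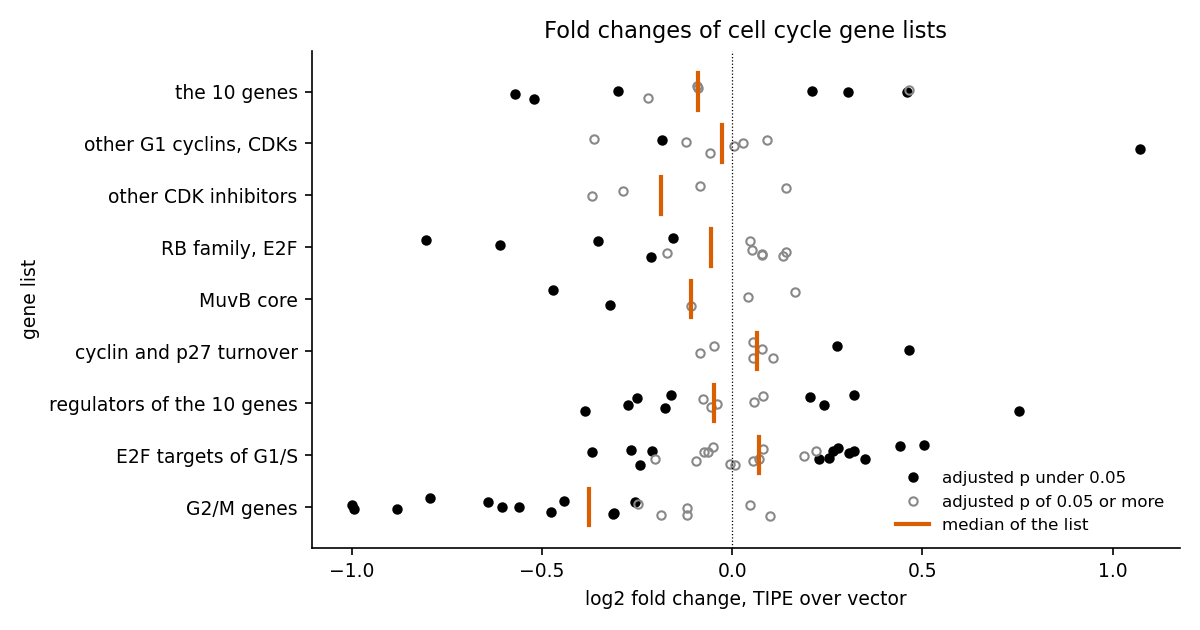
Log2 fold change of TIPE over vector for each tested gene of the cell cycle lists (filled: adjusted p under 0.05, open: not), with the median of each list as a bar. In the reported fit, the G2 and M list has its median at −0.38, and the E2F target list at 0.070.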

How the data were processed

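The authors deposited 1 table of 60605 genes. Per the file headers, each library has a count column and an FPKM column, and each gene has an exonic size. The deposited FPKM values equal the count divided by exonic size and by library total, within 0.005. The submitters' processing notes name HISAT2 2.0.1 and hg38. The counting tool, its annotation and its strand setting were not given in the sources used here, so genes that overlap on opposite strands are uncertain.

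Groups came from the treatment label and replicate numbers from the titles. The 14192 genes whose FPKM averaged 0.5 or more were tested with edgeR 4.0.16 (quasi-likelihood test, robust, group as the only term, TMM factors of 0.962 to 1.03) in R 4.3.3, with Benjamini-Hochberg adjustment over all tested genes and a threshold of 0.05. edgeR was tested on simulated data. Alternatives used limma 3.58.1, DESeq2 1.42.0, other scalings and filters, a GC and length correction, the replicate block and each library left out. TPM values were FPKM rescaled to a fixed sum, an alternative chosen after the data were seen. GC content was taken from the longest transcript in GENCODE release 29, where 58337 identifiers and 99.4% of the tested genes had a match. A count of 0 leaves room for 3 counts, which is 0.147 to 0.215 CPM by library, from counting error only. Promoter sequences are RefSeq's, on GRCh38.p14. The table gives no other library columns.

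The members, lists and tests were chosen with earlier results of these data known. In each list of more than 5 tested genes, up to 4 called genes with the smallest adjusted p and the most abundant gene were named, and in smaller lists all genes; exceptions are named as such. Gene levels are compared only as FPKM.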

Additional observations from a re-analysis of the deposited data

How the results depend on the processing

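Depth limits CCNE1 and CCNE2, at 21 to 125 counts per library, and 3 libraries per group limit every test. CDK4, CDK6 and RB1 kept their direction and their call under all 20 alternatives, CDKN2A under 18, CDKN2C under 12 and CCND3 under 10. CCND1 and CDKN1B passed under 3 and 1 of them. CCNE1 passed under 1 of 19, because it lay under the alternative filter of a mean FPKM of at least 1. The share of calls that were higher was 50.3% and 35.5% with library totals only, 36.9% by limma on log2(FPKM + 1) or log2(FPKM + 0.1) and 24.2% on TPM. The genes higher in TIPE numbered 2988, against 1906 and 1904 by limma with a pseudocount of 1 and 0.1 and 1310 on TPM. Of the list genes, 16 were higher, against 9, 9 and 6 in those fits. The cause was not tested. With the GC and length trend removed, 1 member was higher in place of 3, also together with the replicate block. Leaving out each library in turn left 2 to 5 members lower, the highest being without TIPE replicate 3.

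The replicate numbers showed no pairing by correlation of deviations from the group mean. Same-numbered libraries gave −0.0051, −0.024 and −0.055, and the other pairs across groups −0.0255 to 0.0432. Whether same-numbered libraries shared a culture or preparation was not tested. With the replicate block, 2799 genes were higher and 2786 lower, and the same 6 members were called. With the replicate block and the GC and length trend removed, 2541 were higher and 2087 lower.

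Some genes that did not pass in the reported fit changed sign. E2F4 was at −0.017 with library totals only, −0.016 and −0.016 by limma on FPKM with either pseudocount, −0.083 on TPM and −0.13 with the GC and length trend removed, where it was called as lower (adjusted p = 0.0299), and −0.13 with the block as well (adjusted p = 0.056). RBBP4 was at −0.029, −0.029, −0.030 and −0.096 in the scaling and limma fits, and from −0.014 (without TIPE replicate 2) to 0.073 (without TIPE replicate 3) with a library left out, and it was called as higher after that correction (0.24, adjusted p = 0.000462). MCM7 was at −0.00073, −0.00062, −0.00062 and −0.068 in those fits and at −0.073 and −0.073 with the trend removed, with and without the block. CDC20 was at −0.024, −0.028, −0.029 and −0.095, at −0.13 and −0.13 with the trend removed and from −0.0044 (without TIPE replicate 2) to 0.114 (without TIPE replicate 3) with a library left out. CKS1B was at −0.0024, −0.0026 and −0.069 by limma, and from −0.0093 (without TIPE replicate 2) to 0.175 (without TIPE replicate 1) with a library left out. CDK7 was at −0.044 on TPM. With the trend removed, without and with the block, CDKN1C was at −0.098 and −0.098, and LIN37 at −0.034 and −0.026. EZH2 and POLA1, called as lower, were at 0.037 and 0.025 with the trend removed, and at 0.033 and 0.025 with the block as well.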
